A study of Mus musculus with 4 samples.

Results

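Microglia are the resident macrophages of the brain parenchyma, and a separate population of macrophages lines the meninges and the vessels at its borders. The genes described here are 40 named genes of these cells, listed by symbol and chosen with earlier results of these data known. They cover receptors and identity genes, complement C1q, adaptors and Fc receptors, and genes shared by leukocytes. The others are lysosomal proteases, sensors and chemokines, secreted proteins and genes of border macrophages. Every probe whose symbol on the chip is among the 40 was taken. They were 56 of the 45281 probes, for 39 of the 40 genes. PF4 had no probe under that symbol. A probe was tested where it was detected, meaning a detection p-value under 0.05 against the negative control beads, on at least 2 of the 4 arrays. This left 34 probes of 28 genes among 21726 tested probes of the chip.

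RNA came from the cerebellum of untreated Swiss mice at postnatal day 7. The anterior and the posterior lobes were dissected separately, and 2 samples of each lobe were hybridized to an Illumina MouseWG-6 v2.0 BeadChip, 1 array per sample. The labels do not say whether the replicates came from separate animals or from pools, so the p-values measure only the spread between these samples, which may be technical. The comparison asked which genes differ between the lobes, and every difference is posterior minus anterior. Signals are quantile normalized mean bead intensities on the log2 scale. Between 46.5% and 47.6% of all probes were detected per array, at a median deposited intensity between 110.2 and 129.6. With 2 arrays a lobe, the smallest two-sided p an exact permutation test allows is 0.33, and each call rests on the spread that limma estimates over all tested probes. Of 11 marker genes of cerebellar granule and Purkinje neurons, 8 were tested, among them PAX6, NEUROD1 and PCP2, while CALB1, CAR8 and ATOH1 were not. In bulk tissue, fewer microglia and less RNA per microglial cell cannot be told apart.

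Microglia enter the brain from the yolk sac in the embryo and depend on signalling through the receptor CSF1R. In the postnatal cerebellum they spread through the white matter and cortical layers, clear dying cells and debris, and take part in the shaping of synapses. Their transcription depends on the factor PU.1, which binds purine-rich DNA with a GGAA core.

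The promoters of many of these genes hold the letters of such a core. RefSeq promoter windows of GRCm38.p6, each 300 bases from 250 before to 50 after a gene start, matched 29 of the 40 genes. Not matched were CSF1R, P2RY6, TMEM119, C1QA, TYROBP, ITGB2, UNC93B1, CD14, CD83, CCL4 and MSR1. The letters GAGGAA on either strand were present in a window of 21 of the 29 genes (72.4%) and in 24 of their 37 windows (64.9%). Of all 32851 windows 28.3% held them. The longer form GAGGAAGT, which contains the shorter, was present in 6 of the 37 windows (16.2%) and in 3.2% of all windows. Windows were not matched for base composition, and a match is a description of letters and not of a bound site. Stretches of 60 bases before the start are shown for genes on which the array results turn. SPP1 and F13A1 had the largest positive differences between the lobes, MRC1 is a second border macrophage gene, TREM2 lay at the fold limit, C1QB varied between replicates and APOE was lower in the posterior lobes. Capitals mark the match, on the strand of the gene (GAGGAA) or the opposite strand (TTCCTC).
SPP1, chr5:104434971-104435030, + strand: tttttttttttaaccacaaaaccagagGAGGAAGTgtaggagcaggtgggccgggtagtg
F13A1, chr13:37050278-37050337, - strand: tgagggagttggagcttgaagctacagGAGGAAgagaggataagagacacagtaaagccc
MRC1, chr2:14229352-14229411, + strand: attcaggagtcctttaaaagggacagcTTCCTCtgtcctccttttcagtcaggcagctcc
TREM2, chr17:48346334-48346393, + strand: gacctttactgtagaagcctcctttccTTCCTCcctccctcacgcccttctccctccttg
C1QB, chr4:136886201-136886260, - strand: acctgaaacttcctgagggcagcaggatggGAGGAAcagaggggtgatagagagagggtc
APOE, chr7:19698498-19698557, - strand: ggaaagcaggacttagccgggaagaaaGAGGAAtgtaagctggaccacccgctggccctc
Of these, the stretch of SPP1 holds the longer form. CX3CR1, LY86, CORO1A, LGMN, MPEG1, P2RY12, FCER1G and CD163 have a window without the shorter letters.

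Most of the microglia and macrophage genes differed little between the lobes. Of the 34 tested probes, 3 were higher and 2 lower in the posterior lobes by the criterion used here, a fold above 1.2 and p under 0.05 before adjustment. The higher probes were those of F13A1, LY86 and CD14, and the lower ones those of APOE and a probe of CORO1A. Over all tested probes 3.30% were higher and 5.0% lower by the same criterion. No member passed an adjusted p of 0.05 by limma, which 0.106% of all tested probes passed. An unadjusted p under 0.05 was found for 6 members, CCL4 among them, and for 2185 of the 21726 tested probes. The median difference of the 34 probes was 0.051 on the log2 scale, against 0.002 over all tested probes. The median size of the difference, whatever its direction, was 0.117 for the members and 0.105 for all tested probes. The 2 posterior signals exceeded the anterior ones without overlap for 9 members and were below them for 6, against 21.1% and 21.5% of all tested probes. CCL4, among the 9, was detected in the posterior lobes alone, so that its order was fixed by the detection filter. The 95% intervals by limma, a median of 0.30 to either side, lay within 1.5-fold in both directions for 27 of the 34 probes and within 2-fold for 32.

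How far these results depended on single arrays varied between probes. With an array left out, its lobe has a single array and no spread of its own, so only the size of the difference is given. It then lay between 0.44 and 0.61 for F13A1, 0.29 and 0.51 for LY86, and 0.29 and 0.37 for CD14. For APOE it lay between -0.39 and -0.19, and for ILMN_2733793 of CORO1A between -0.44 and -0.28. MRC1 ranged from 0.05 to 0.54 and ILMN_1230485 of CSF1R from -0.84 to -0.07. SPP1 fell to 0.28 without anterior replicate 2, and without anterior replicate 1 the remaining anterior array did not detect it. Without normalization between arrays LY86, CD14 and APOE missed the criterion, and SPP1 and a probe of CSF1R passed it. In that fit 2.29% of all tested probes were higher and 3.77% lower by the criterion.

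**Figure D1:**
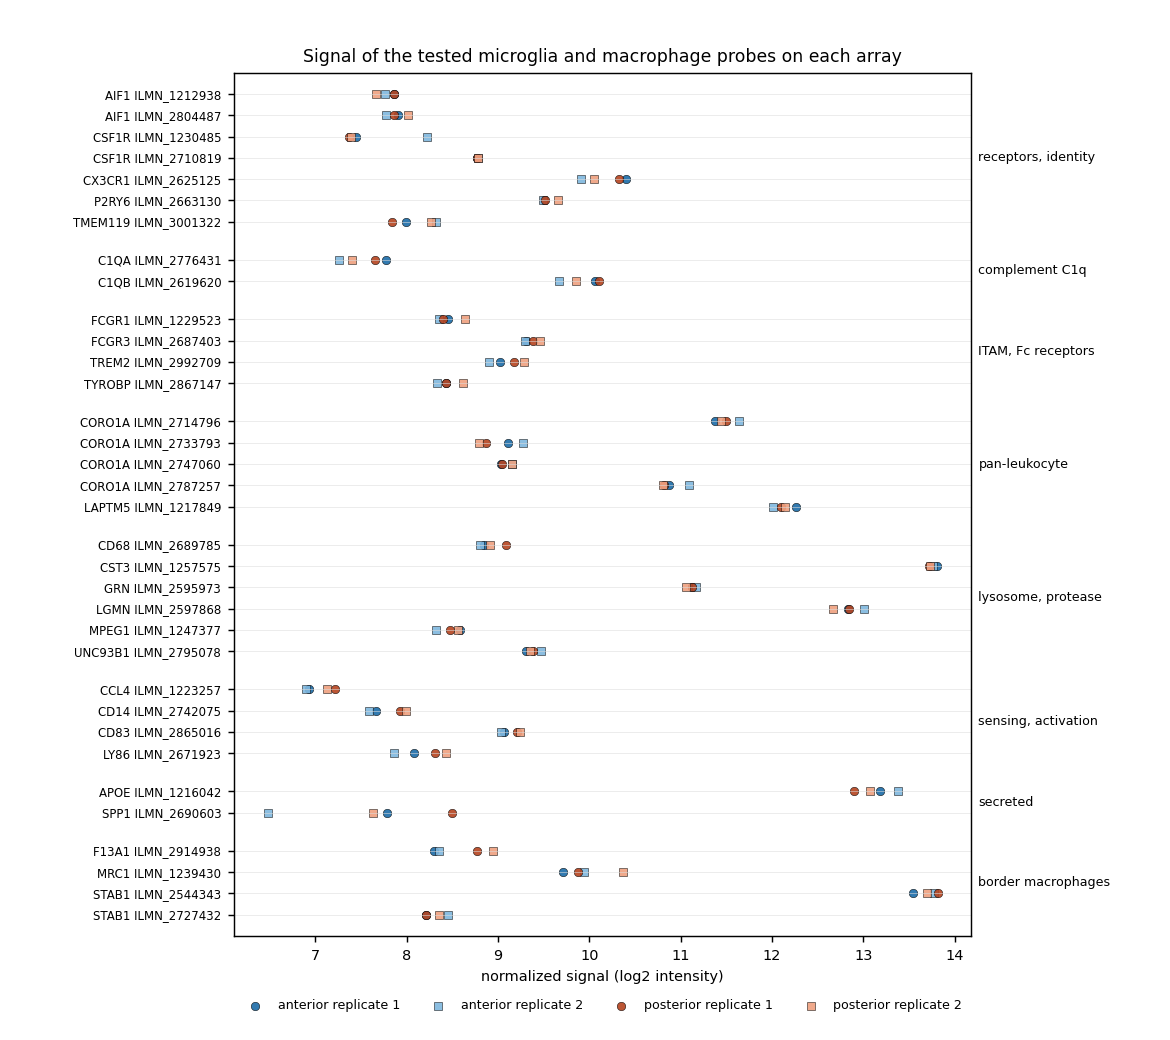
Normalized log2 signal (horizontal axis) of the 34 tested probes of microglia and macrophage genes, grouped by role, with a symbol for each of the 4 arrays (blue anterior, red posterior, circles replicate 1, squares replicate 2). The 4 symbols of most probes lie close together, those of SPP1 span from 6.47 to 8.50, and brightness is not comparable between probes.

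**Figure D2:**
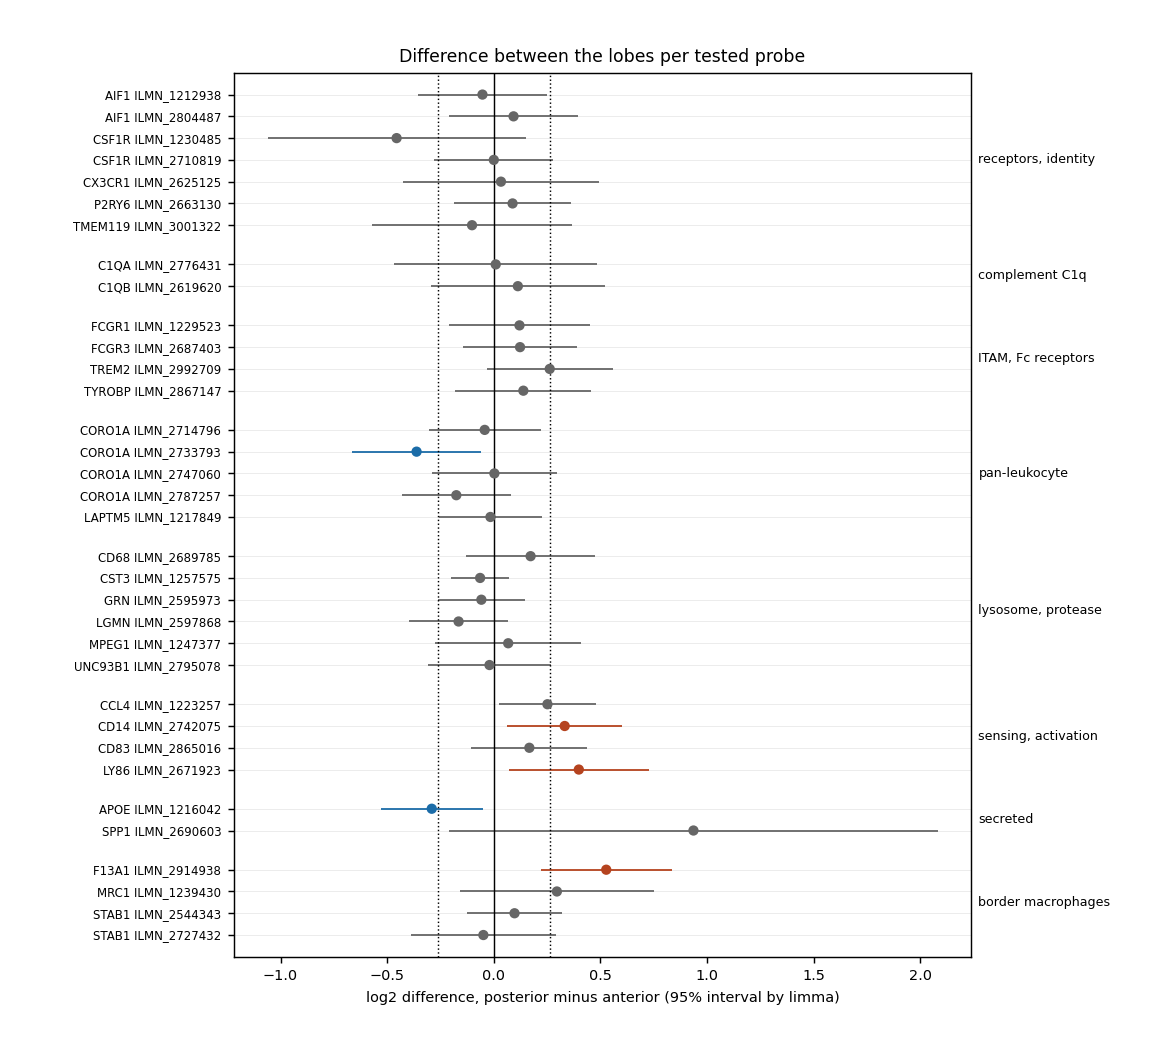
Log2 difference, posterior minus anterior, of each tested probe (points) with its 95% interval by limma (lines). Dotted lines mark 1.2-fold, and red and blue points are the 3 probes higher and the 2 lower by the criterion.

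Receptors and identity genes came first by role. CSF1R, the receptor for the growth factors CSF1 and IL-34 on which microglia depend, was measured by a pair of probes that disagreed. ILMN_2710819 had a log2 signal of 8.76 and 8.78 on the anterior arrays and of 8.77 and 8.78 on the posterior arrays, the steadiest of the receptor probes. Its difference was 0.0005 with a 95% interval from -0.28 to 0.28. ILMN_1230485 had 7.45 and 8.22 on the anterior and 7.37 and 7.39 on the posterior arrays. Anterior replicate 2 stood apart from the other 3 arrays on this probe. The difference was -0.46 (95% interval -1.06 to 0.15, adjusted p = 0.59 by limma). It shrank to -0.07 without anterior replicate 2 and was -0.84 without anterior replicate 1.

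CX3CR1, the receptor for the neuronal chemokine fractalkine, had a log2 signal of 10.40 and 9.91 on the anterior and of 10.32 and 10.05 on the posterior arrays. The lobes overlapped, with a difference of 0.03 (95% interval -0.43 to 0.49). P2RY6, a receptor for uridine nucleotides that triggers phagocytosis, lay at 9.51 and 9.49 anteriorly and at 9.52 and 9.66 posteriorly. TMEM119, a membrane protein that marks parenchymal microglia, was at 7.99 and 8.32 in the anterior and 7.84 and 8.27 in the posterior lobes, again with overlap. The tested probes of AIF1, which encodes the actin-binding protein Iba1, differed by -0.05 and 0.09 (adjusted p = 0.91 and 0.83 by limma). P2RY12, the purine receptor of resting microglia, was near background. Of its probes ILMN_2840082 was detected on anterior replicate 1 alone, at a detection p-value of 0.036 against 0.090 to 0.111 on the other 3 arrays, and ILMN_2771753 on none.

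C1QA and C1QB encode chains of C1q, the complement protein with which microglia tag synapses and debris. C1QA had a log2 signal of 7.77 and 7.26 on the anterior arrays and of 7.65 and 7.40 on the posterior arrays. C1QB had 10.06 and 9.67 on the anterior and 10.11 and 9.85 on the posterior arrays. For both genes the array of replicate 1 was the brighter one in each lobe, and the lobes overlapped. The differences between the lobes were 0.01 (95% interval -0.47 to 0.49) for C1QA and 0.11 (95% interval -0.29 to 0.52) for C1QB. C1QC, the remaining chain, is outside the 40 and differed by 0.18 (adjusted p = 0.61 by limma).

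Replicate arrays differed more than the lobes did for this pair and for CX3CR1. C1QA was 0.51 higher on replicate 1 than on replicate 2 in the anterior lobes and 0.25 higher in the posterior lobes, on the log2 scale. For C1QB these values were 0.38 and 0.26, and for CX3CR1 0.49 and 0.27. The standard error of the bead mean within an array was at most 0.087 for these 3 probes on the log2 scale, so the replicate differences were wider than the bead error. TMEM119 went the other way, -0.32 and -0.43, as did MRC1 with -0.23 and -0.50. Over the 34 probes, 7 were brighter on replicate 1 in both lobes, 8 were brighter on replicate 2 in both, and the other 19 changed direction between the lobes. Over all tested probes 25.8% were brighter on replicate 1 in both lobes and 32.5% on replicate 2. In 15 members (44.1%) the difference between the lobes was smaller than both replicate differences, against 34.8% of all tested probes. Which animals the replicate numbers stand for is not stated, and what set the arrays apart was not tested.

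**Figure D3:**
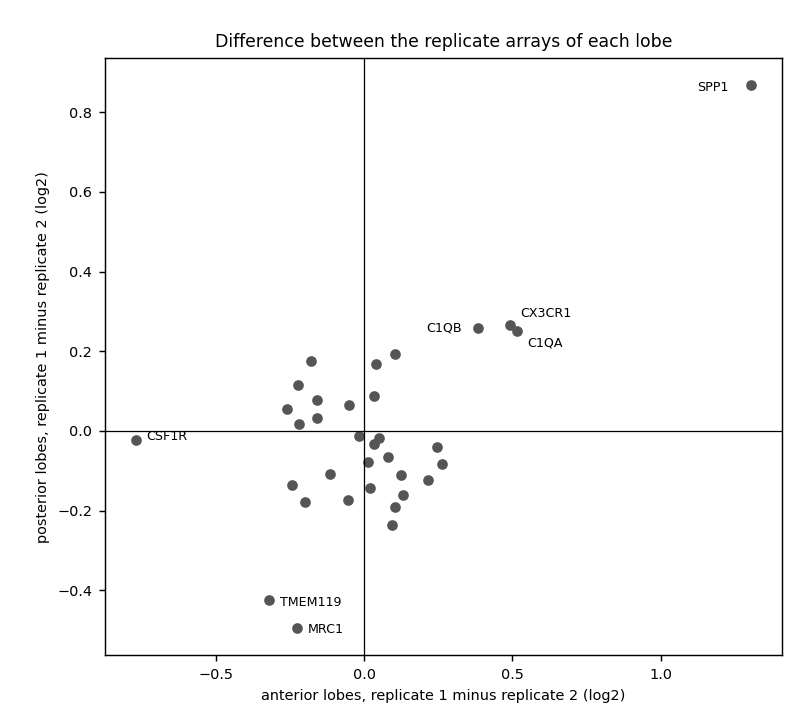
Difference between the arrays of replicate 1 and replicate 2 on the log2 scale, for the anterior lobes (horizontal axis) and the posterior lobes (vertical axis), for the 34 tested probes (points). SPP1, C1QA, C1QB and CX3CR1 lie to the upper right, TMEM119 and MRC1 to the lower left, and CSF1R marks ILMN_1230485.

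The adaptors with an immunoreceptor activation motif, and the receptors that signal through them, had positive differences in all 4 of their tested genes. None passed the criterion. Differences were positive for 21 of the 34 member probes and for 10985 of the 21726 tested probes. TREM2, the lipid-sensing receptor that pairs with the adaptor TYROBP, had a log2 signal of 9.03 and 8.90 on the anterior and of 9.17 and 9.28 on the posterior arrays. Both posterior arrays were above both anterior arrays. The difference was 0.26 (95% interval -0.03 to 0.56, adjusted p = 0.54 by limma), at the 1.2-fold limit. TYROBP itself lay at 8.43 and 8.33 in the anterior and 8.43 and 8.62 in the posterior lobes, and the arrays overlapped. The receptors for immunoglobulin G gave differences of 0.12 for FCGR1 and 0.12 for FCGR3 (95% intervals -0.21 to 0.45 and -0.15 to 0.39). FCER1G, the common Fc receptor gamma chain, was not detected on any array.

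Of the genes that leukocytes share, few were detected. PTPRC, which encodes CD45, was not above background on any of its 3 probes, nor were the integrin chains ITGAM and ITGB2, or CD53, a tetraspanin. LAPTM5, a lysosomal membrane protein of blood-derived cells, was detected at 12.26 and 12.01 in the anterior and 12.10 and 12.14 in the posterior lobes, a difference of -0.02 (95% interval -0.26 to 0.23). CORO1A, an actin-binding coronin that neurons express too, was measured by 4 probes that did not move together. ILMN_2733793 was at 9.11 and 9.27 on the anterior and 8.87 and 8.79 on the posterior arrays. Both posterior arrays were below both anterior arrays on this probe, with a difference of -0.36 (95% interval -0.66 to -0.06), which is 1.29-fold lower (adjusted p = 0.42 by limma). The other CORO1A probes differed by -0.18, -0.04 and 0.003, and none of those passed the criterion.

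The lysosomal and protease genes had differences between -0.16 and 0.17 and none of 6 tested probes past the criterion. CD68, a glycoprotein of late endosomes and lysosomes used to stain phagocytic cells, lay at 8.85 and 8.81 in the anterior and at 9.08 and 8.92 in the posterior lobes. The posterior arrays were higher without overlap, by 0.17 (95% interval -0.13 to 0.48). LGMN, the protease legumain, was at 12.83 and 13.01 in the anterior and 12.84 and 12.67 in the posterior lobes, with overlap and a difference of -0.16 (95% interval -0.40 to 0.07). The protease inhibitor cystatin C, encoded by CST3, differed by -0.06 and had the narrowest interval of all members, from -0.20 to 0.07. Progranulin, encoded by GRN, differed by -0.06, the pore-forming protein of MPEG1 by 0.07 and UNC93B1, the chaperone of endosomal Toll-like receptors, by -0.02. For CST3, and barely for GRN, both posterior arrays were below both anterior arrays, an order that 21.5% of all tested probes had. Both CST3 and GRN are expressed by other brain cells as well. The cathepsins CTSS and CTSC were not detected on any array, CTSC on none of its 3 probes.

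Of the 4 tested genes of sensing and activation, LY86 and CD14 were higher by the criterion, which 3.30% of all tested probes were. LY86, CD14 and CD83 had both posterior arrays above both anterior arrays, an order that 21.1% of all tested probes had. LY86, which encodes MD-1, a partner of the Toll-like receptor relative RP105, had a log2 signal of 8.08 and 7.86 on the anterior and of 8.31 and 8.43 on the posterior arrays. The mean was 7.97 ± 0.153 (SD, n = 2 arrays) anteriorly and 8.37 ± 0.088 posteriorly. The difference was 0.40 (standard error 0.13, 95% interval 0.07 to 0.73), a 1.32-fold higher signal (adjusted p = 0.42 by limma). CD14, the co-receptor for lipopolysaccharide, was at 7.66 and 7.58 in the anterior and at 7.92 and 7.99 in the posterior lobes. Its mean went from 7.62 ± 0.057 (SD, n = 2 arrays) to 7.96 ± 0.047, a difference of 0.33 (standard error 0.11, 95% interval 0.06 to 0.60), or 1.26-fold (adjusted p = 0.42 by limma).

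CD83, an activation marker of myeloid and B cells, was at 9.07 and 9.04 in the anterior and 9.20 and 9.24 in the posterior lobes, a difference of 0.17 (95% interval -0.10 to 0.44). Of the chemokine genes, CCL4 was detected by ILMN_1223257 in the posterior lobes alone, on both arrays. The posterior detection p-values were 0.029 and 0.041 and the anterior ones 0.068 and 0.088, so that all 4 values lay near the limit. With the anterior level known only as a limit, the posterior mean of 7.17 was at least 1.11-fold higher, taken against the dimmest detected probe of each anterior array. The adjusted p of 0.45 by limma belongs to the difference of 0.25 between the measured signals and not to this limit. The probe entered the test through its posterior values alone. CCL3, the neighbouring chemokine, and the second CCL4 probe were not detected.

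SPP1, which encodes the secreted phosphoprotein osteopontin and is high in the microglia of developing white matter, had the largest positive difference and the widest spread of all members. Its log2 signal was 7.78 and 6.47 on the anterior and 8.50 and 7.63 on the posterior arrays. On anterior replicate 2 it was not detected (detection p-value 0.25), so 1 anterior array alone measured it. In each lobe replicate 1 was the brighter array, by 1.31 among the anterior arrays and 0.87 among the posterior ones, and the lobes overlapped. The difference was 0.94 with a 95% interval from -0.21 to 2.08 (adjusted p = 0.56 by limma). Without anterior replicate 1 the anterior level was only a limit, and the posterior mean of SPP1 exceeded it at least 2.07-fold. Without anterior replicate 2 its difference was 0.28.

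APOE, the lipid carrier that astrocytes secrete and that microglia also make, was on the opposite side. Its log2 signal was 13.18 and 13.38 on the anterior and 12.90 and 13.08 on the posterior arrays, with both posterior arrays below both anterior arrays. The mean was 13.28 ± 0.143 (SD, n = 2 arrays) anteriorly and 12.99 ± 0.126 posteriorly. The difference of -0.29 (standard error 0.098, 95% interval -0.53 to -0.05) is 1.22-fold lower (adjusted p = 0.42 by limma). Of 12 tested probes of astroglial marker genes, 0 passed the criterion in either direction, 1 had an unadjusted p under 0.05, and their median difference was -0.08.

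Border macrophages, the cells of the meninges and perivascular spaces, are marked by F13A1, MRC1, STAB1, CD163, PF4 and MSR1. F13A1, which encodes the A subunit of coagulation factor XIII, had the lowest p of all members. Its log2 signal was 8.30 and 8.36 on the anterior and 8.77 and 8.94 on the posterior arrays, with no overlap. The mean went from 8.33 ± 0.038 (SD, n = 2 arrays) to 8.86 ± 0.122, a difference of 0.53 (standard error 0.13, 95% interval 0.22 to 0.84), or 1.44-fold (adjusted p = 0.28 by limma). With any single array left out the F13A1 difference lay between 0.44 and 0.61, and it was lowest without posterior replicate 2.

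MRC1, the mannose receptor CD206, was at 9.71 and 9.94 in the anterior and 9.88 and 10.37 in the posterior lobes. The lobes overlapped, posterior replicate 2 was the brightest, and the difference was 0.30 (95% interval -0.16 to 0.75, adjusted p = 0.63 by limma). Without posterior replicate 2 the MRC1 difference was 0.05. The scavenger receptor STAB1 had probes on either side, with differences of -0.05 for ILMN_2727432 and 0.10 for ILMN_2544343 and overlapping lobes on both. CD163, the receptor for haemoglobin bound to haptoglobin, and MSR1, a scavenger receptor for modified lipoproteins, were not detected. PF4 is listed on the chip under its older symbol CXCL4, outside the rule used here. That probe had a log2 signal of 6.94 and 7.05 in the anterior lobes, the first of them not detected, and of 7.07 and 7.52 in the posterior lobes (difference 0.30, adjusted p = 0.59 by limma).

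Genes of other cells moved beside these results. Of 15 tested probes of 10 marker genes of meningeal fibroblasts, 10 were higher in the posterior lobes by the criterion and 0 lower, with a median difference of 0.51. The summed normalized intensity of that list was 17970 and 20130 in the anterior and 26810 and 31350 in the posterior lobes, and all of its 10 genes were tested. Of 21 probes of oligodendrocyte and myelin genes, 20 were lower and 0 higher, at summed intensities of 120900 and 121700 in the anterior and 80160 and 75250 in the posterior lobes. The part of either in the differences of F13A1, LY86, CD14, SPP1 and APOE was not tested. Endothelial genes had a median difference of -0.02 over 11 probes, 5 positive and 6 negative. By the criterion 1 probe was higher and 0 lower. It was a CDH5 probe at 0.46, while the second CDH5 probe differed by 0.20 and the PECAM1 probes by -0.28 and -0.20. Blood leukocyte markers were near background, with 1 of 15 genes tested, and the neutrophil genes S100A8, S100A9 and NGP and the T-cell genes CD3E and CD3G were not. Red blood cell genes had a median difference of 0.11 over 13 probes of 3 genes, most of them probes of HBB-B1. Of these probes 0 passed the criterion and 3, all of HBB-B1, had an unadjusted p under 0.05. The tested probes of HBA-A1 and ALAS2 differed by -0.03 and 0.21.

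**Figure D4:**
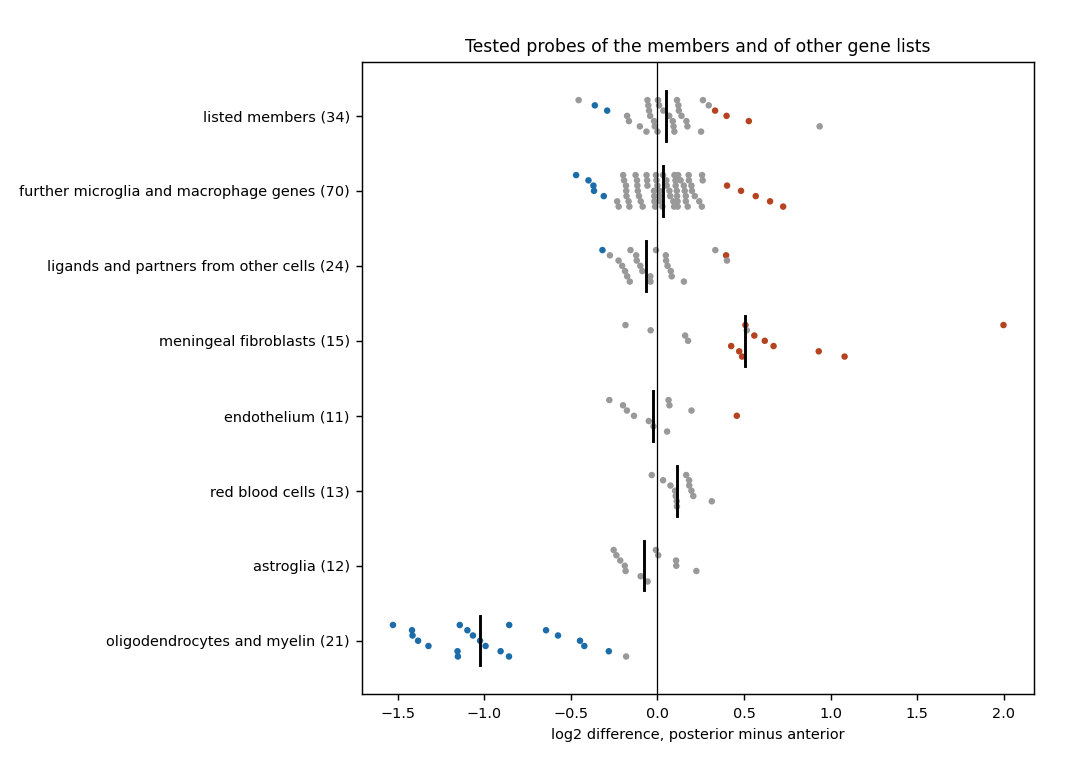
Log2 difference, posterior minus anterior, of the tested probes (points, their number in parentheses) of the microglia and macrophage members and of other gene lists, with black bars at the medians. Red and blue points are higher and lower by the criterion, and the members centre near 0 while fibroblast probes lie mostly above it and myelin probes below it.

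A longer list of 99 microglia and macrophage symbols outside the 40 was read in the same way. It had 70 tested probes of 54 genes. Of these probes 5 were higher and 5 lower by the criterion (7.14% each, against 3.30% and 5.0% of all tested probes). By limma 0 passed the adjusted p, and 11 had an unadjusted p under 0.05, against 2185 of the 21726 tested probes. The median difference was 0.03. Higher in the posterior lobes were LYZ2, which encodes lysozyme (difference 0.65), GPNMB, a glycoprotein of phagocytic cells (0.73), CD209F, a lectin of border macrophages (0.57), and the chemokines CCL9 (0.48) and CXCL16 (0.40). LYZ2 was at 8.25 and 8.54 on the anterior and 9.17 and 8.92 on the posterior arrays, without overlap. CD209F was at 8.39 and 8.18 on the anterior and 8.60 and 9.10 on the posterior arrays, likewise without overlap. The GPNMB probe was not detected on anterior replicate 2, and the GPNMB probes ILMN_2614655 and ILMN_2918882 were not detected on any array.

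Among the lower probes were both of P2RX4, an ATP-gated channel (-0.47 and -0.37), and that of FERMT3, the kindlin of blood cells (-0.40). SIGLECH, a lectin of parenchymal microglia, was detected by ILMN_1239190 in the anterior lobes alone, where it was at least 1.11-fold higher. This probe entered the test through its anterior values alone. Its probe ILMN_2928599, detected on all 4 arrays, differed by 0.07. The adjusted p of the 10 probes lay between 0.29 and 0.49 by limma.

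Signals that reach microglia from other cells were also examined, from a list of 21 genes with 24 tested probes. GAS6, the ligand of the phagocytic receptors Axl and Mertk, was lower in the posterior lobes (-0.32, adjusted p = 0.37 by limma), and a probe of the chemokine CXCL12 was higher (0.40, adjusted p = 0.46 by limma). The other CXCL12 probes lay on either side of 0, between -0.22 and 0.33, so this gene has no single direction.

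The members that were not tested account for the rest. They were 22 probes, of which 21 were detected on 0 arrays and 1 on a single array, with deposited intensities from 52.8 to 147.9. No tested probe stood for 11 genes, namely CD53, CTSS, CTSC, FCER1G, ITGAM, ITGB2, PTPRC, P2RY12, CCL3, CD163 and MSR1. Their lobes cannot be compared, and a signal at background on this chip does not show that the transcript was absent. Of the 34 tested probes, 32 were detected on all 4 arrays, SPP1 on 3 and CCL4 on 2.

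**Figure D5:**
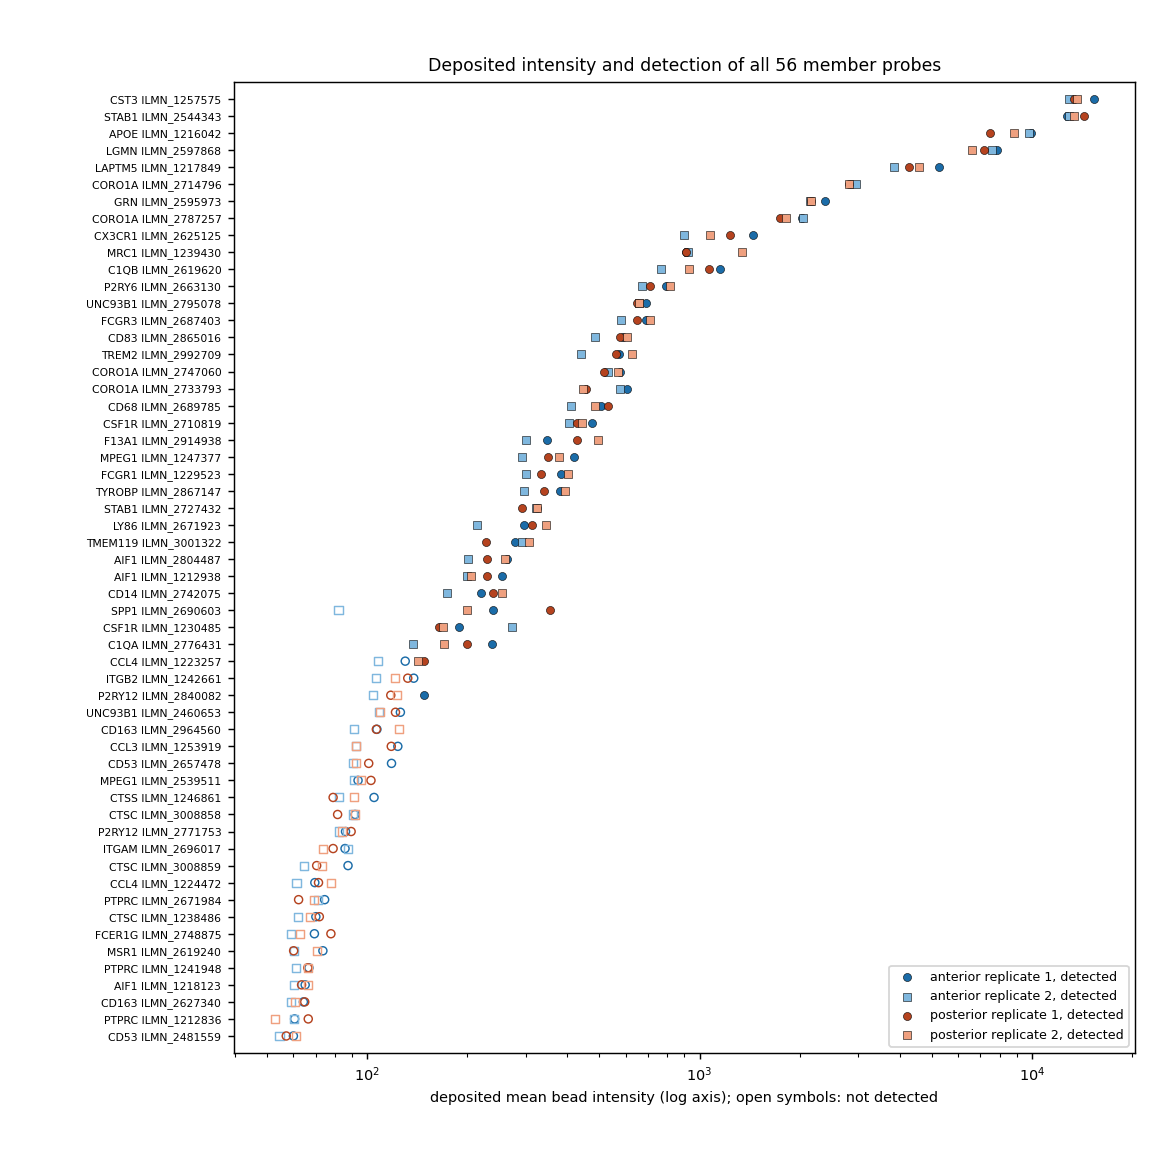
Deposited mean bead intensity (horizontal log axis) of all 56 member probes on each of the 4 arrays, ordered by mean intensity, with filled symbols where the probe was detected and open symbols where it was not. Untested probes lie between 52.8 and 147.9, and the tested probes of CCL4, C1QA and SPP1 reach into that range on at least 1 array.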

How the data were processed

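The authors deposited 1 table from GenomeStudio 1.9.0, with normalization switched off, that holds for each of 45281 probes and each array a mean intensity over beads, the SD over beads, a whole-number bead count and a detection score. The deposited detection score is a fraction, 1 minus the detection p-value. The floor of 1 and the log2 scale of the study's methods are not in the table and were applied here. Another 16 columns were not used. The label descriptions number the samples as the columns do.

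Intensities were quantile normalized in R 4.3.3 and put on the log2 scale above a floor of 1. The 21726 probes that 2 or more arrays detected (p under 0.05) were fitted with limma 3.58.1 (lmFit, eBayes with an intensity trend) and adjusted over all of them by the Benjamini-Hochberg method. The fit was checked on simulated data. The number of arrays limits the precision. The members, gene lists and named genes were chosen with earlier results of these data known. The criterion (fold above 1.2, p under 0.05) follows the study's methods, which do not say whether p was adjusted, and unadjusted p was used. Named with a direction were tested members past this criterion and the 10 with the largest difference. Fits tried beside this one were no normalization, a common 75th percentile, cyclic loess, neqc background correction (offset 16), no filter, detection on all 4 arrays or at p under 0.01, a replicate block, no intensity trend, the methods' t-test, 1 probe per gene, a 1.5-fold limit, which a legend of the study gives, and each array dropped in turn. Symbols are those of the array, and all 40 are current symbols in the RefSeq table of GRCm38.p6. Promoter sequences are from RefSeq. A result among the further genes is not reported here.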

Additional observations from a re-analysis of the deposited data

How the results depend on the processing

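None of the 10 probes named with a direction turned its sign under any alternative run, but this was largely fixed in advance. The probes were picked for their differences in the same arrays. Runs that changed only the filter, the trend, the test or the block return the same difference. Where the lobes do not overlap, leaving an array out cannot turn the sign. CCL4 was present in 10 of 14 runs and SPP1 in 13. The 3 higher members by the criterion were 5 with the replicate number as a block, 0 at 1.5-fold, and between 0 and 6 with an array left out. The 2 lower members were 1 with a common 75th percentile (3.91% of all tested probes), without the intensity trend (5.14%) and with 1 probe per gene. They were 0 at 1.5-fold, by the methods' t-test and without CST3, APOE, GRN, SPP1, LGMN and CORO1A, which other brain cells express too, and between 0 and 4 with an array left out. The block gave 3 lower members, with a probe of CSF1R gained, and added SPP1 and MRC1 to the higher ones. Without normalization the 2 higher members were F13A1 and SPP1 and the 2 lower ones CORO1A and CSF1R. LY86 also missed the criterion by the methods' t-test. CCL4 passed it with a common 75th percentile and with neqc, but its order was fixed by the detection filter. Among the runs that kept all 4 arrays, 1 member passed the adjusted p by limma, SPP1 with the replicate block (adjusted p = 0.0037). The block changed no other named call at that threshold, and over all tested probes 2.71% then passed. The labels do not say that equal numbers share an animal. The replicate differences of the lobes correlated with r = 0.458 over all tested probes, and 2 pairs do not settle a pairing.

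The median difference of the members, 0.051, was 0.072 with a common 75th percentile, 0.011 without a filter, 0.022 with detection on all 4 arrays, 0.095 with 1 probe per gene, 0.098 without the genes of other brain cells named above, and between 0.017 and 0.119 with an array left out. Over all tested probes the median was 0.002 in the main fit and 0.032 with a common 75th percentile. It was 0.001 without a filter, 0.002 with detection on all 4 arrays, and between -0.007 and 0.009 with an array left out. The cause of the shifts of the members was not tested. With 1 array dropped, the spread comes from the other lobe and is assumed to hold for the single array left. Calls from those runs are therefore not counted. Members near background (CCL4, C1QA, SPP1 and ILMN_1230485 of CSF1R) are limited by their signal.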
